A study of Homo sapiens with 6 samples.

Results

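Transcripts of keratins 8, 18 and 19 and of 7 proteins of epithelial cell contacts were followed here in C42 cells after knockdown of the histone methyltransferase NSD2. Protein levels and the junctions themselves were not measured. The 10 genes, KRT8, KRT18, KRT19, EPCAM, CDH1, CLDN3, CLDN4, CLDN7, OCLN and TJP1, were taken by symbol from a count table of 31413 genes, and all 10 had a row and passed the low-count filter. C42, also written C4-2, is a prostate cancer cell line derived from LNCaP cells, and it is grown here in RPMI medium with serum. The tested libraries carried an shRNA to NSD2, which the labels also call shWHSC1 by the older name of the gene, and are named shNSD2 1, 2 and 3. The control libraries carried a control shRNA and are named shCTR 1, 2 and 4. All 6 come from the same line, and the labels name 1 shRNA a group without its sequence, the number of clones or the time after transduction. The labels also do not say whether the libraries of a group were separate cultures, so each p-value is set against library-to-library spread alone, which may be technical.

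Keratins 8 and 18 pair as the type II and type I chains of the intermediate filaments of simple epithelia, and in the prostate they mark the luminal secretory cells, while keratin 19 is a further type I chain. E-cadherin, made from CDH1, joins neighbouring cells in adherens junctions, and EPCAM is an adhesion protein of the lateral membrane of epithelial cells. In tight junctions, claudins form the paracellular barrier and its pores, occludin (OCLN) is a second kind of membrane protein, and ZO-1 (TJP1) is the scaffold beneath them that binds their tails and actin.

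Each library held between 19412896 and 20665494 counts, and 27364 to 27990 genes had at least 1. Values are given as CPM, the count scaled to a common library size with the TMM factors of edgeR, and 3 counts equal 0.145 to 0.156 CPM, which covers counting error only. NSD2 had 85.3, 86.4 and 89.7 CPM in the shNSD2 libraries, against 219, 223 and 200.1 CPM in the shCTR libraries. Its log2 fold change was -1.30 (95% interval -1.49 to -1.10, edgeR quasi-likelihood test, adjusted p = 8.03e-05). Summed over 10 markers of prostate luminal cells, among them KLK3, HOXB13 and TMPRSS2, the libraries held 11034 to 11419 CPM in shNSD2 and 11820 to 13753 CPM in shCTR. KLK3, not called, made up the largest part, with means of 5831 CPM in shNSD2 and 6628 CPM in shCTR. HOXB13 (log2 fold change 0.24) and TMPRSS2 (0.44), not called either, were the 2 of the 10 above 0. All 10 luminal markers were tested, and 0 were called higher and 3 lower, among them KLK2 and ACPP. That lower count rests on single libraries, being 0 without shCTR 2 or shNSD2 1, 1 without shCTR 1, shNSD2 2 or shNSD2 3, and 6 (with 2 higher) without shCTR 4. Over all genes tested, 15.5% were called higher and 15.2% lower with all libraries, and 23.9% and 22.6% without shCTR 4. DESeq2 called 1 luminal marker higher and 5 lower, beside 2307 higher and 2369 lower of all 18616 genes it tested. KLK2 and ACPP were called in 2 and 3 of the 6 edgeR fits that leave out a library. Of 7 basal markers 4 had a row, with a summed level of 5.62 to 7.5 CPM in shNSD2 and 3.44 to 6.36 CPM in shCTR. TP63, KRT5 and KRT17 had no row in the count table and so no value here. ITGB4 made up most of the basal sum, with a mean of 5.51 CPM in shNSD2 and 3.49 CPM in shCTR. Summed markers of fibroblasts (5 of 7 with a row) came to 2.81 to 3.39 CPM in shNSD2 and 2.97 to 3.57 CPM in shCTR. Within that sum PDGFRB averaged 2.18 CPM in shNSD2 and 1.74 CPM in shCTR and was not called. COL3A1 fell to 0.252 CPM in shNSD2, against 1.2 CPM in shCTR (log2 fold change -2.24, edgeR adjusted p = 0.00217). Summed markers of leukocytes (5 of 7) came to 0.462 to 1.27 CPM in shNSD2 and 0.627 to 1.03 CPM in shCTR.

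The keratin pair KRT8 and KRT18 rose with NSD2 knockdown, CDH1 and OCLN fell, and the other 6 genes did not pass the test at an adjusted p under 0.05. All 4 calls were of modest size, between 1.33-fold and 1.53-fold. The same test called 15.5% of all 17160 genes tested higher and 15.2% lower, 30.7% in either direction. At a mean level of 10 CPM or more, where all 10 members lie, it called 35.6% of 9822 genes. The 4 of 10 called here are therefore near the share over all genes, and the count by itself says nothing particular about keratins or junctions. The median log2 fold change of the 10 was -0.03, against 0.01 over all genes tested, with 4 of the 10 above 0, 5 below and CLDN4 at 0.00. CPM of the 2 groups did not overlap for KRT8, KRT18 and OCLN, 3 of 10, where 46.8% of all genes tested showed no overlap.

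**Figure D1:**
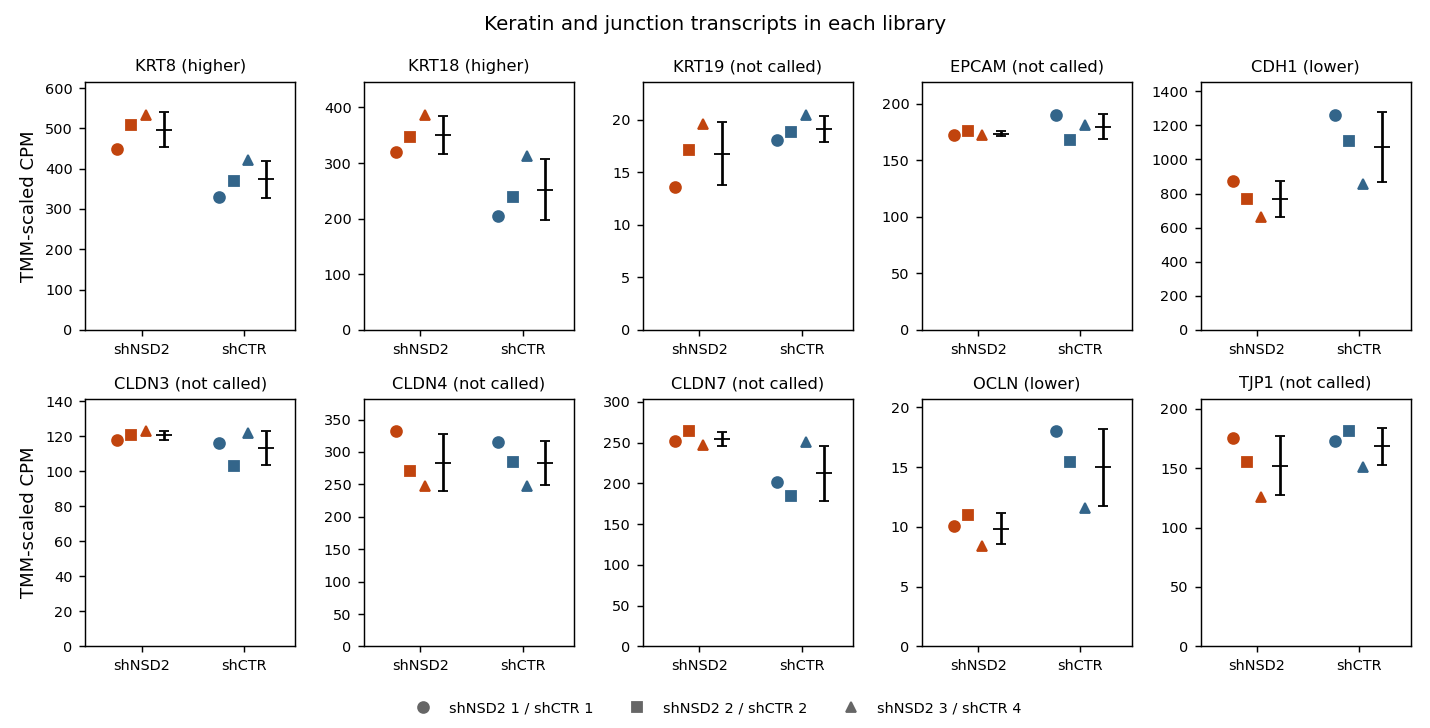
TMM-scaled CPM of each of the 10 genes in each library, with shNSD2 in orange on the left and shCTR in blue on the right of each panel. Marker shapes give the library number and bars the mean ± SD of 3 libraries. KRT8, KRT18 and OCLN show no overlap between groups, and shCTR 4, the blue triangle, is the control nearest to the shNSD2 values for KRT8, KRT18, CDH1, CLDN7 and OCLN.

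KRT8, the type II chain, had 448, 508 and 534 CPM in shNSD2 1, 2 and 3, against 329, 369 and 422 CPM in shCTR 1, 2 and 4. All 3 knockdown libraries lay above all 3 controls. The means were 497 ± 43.9 CPM in shNSD2 and 373 ± 46.6 CPM in shCTR (SD over 3 libraries a group). The fitted log2 fold change was 0.41 (SE 0.119, 95% interval 0.15 to 0.68, edgeR adjusted p = 0.0256). KRT18, its type I partner, had 319, 347 and 387 CPM in shNSD2, against 205, 239 and 312 CPM in shCTR. The lowest knockdown library was again above the highest control, by a narrow margin set by shCTR 4. The log2 fold change of KRT18 was 0.48 (SE 0.148, 95% interval 0.15 to 0.80, edgeR adjusted p = 0.0332), with means of 351 ± 34 CPM in shNSD2 and 252 ± 54.9 CPM in shCTR. Both chains thus changed by similar amounts, and in both groups the order of the libraries was the same for the 2 genes, with shNSD2 3 and shCTR 4 highest. KRT19 had the same order of libraries in both groups but no rise, with 13.6, 17.1 and 19.6 CPM in shNSD2 and 18.1, 18.8 and 20.5 CPM in shCTR. These ranges overlap, and its log2 fold change of -0.19 (95% interval -0.48 to 0.10) was not called (edgeR adjusted p = 0.291).

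The genes of the keratin pair lie head to head. On GRCh38 with GENCODE 29, KRT8 spans chr12:52897187-52949954 on the minus strand and KRT18 spans chr12:52948871-52952901 on the plus strand, and 525 exonic bases are common to both. The sources used here give no strand setting for the counting, so reads of those bases cannot be assigned to 1 of the 2 genes. KRT19 lies apart from them on chr17:41523617-41528308, minus strand. Processed copies of these keratins are many, and the table held 65 rows named as numbered pseudogenes of KRT8, KRT18 or KRT19. The 26 KRT8 copies together amounted to 4.43% to 5.18% of the KRT8 count in the shNSD2 libraries and 4.67% to 5.76% in the shCTR libraries. For the 38 KRT18 copies the shares were 1.38% to 1.5% in shNSD2 and 1.35% to 2.63% in shCTR. The copy with the most reads, KRT8P12, had 16.1, 14.4 and 17.6 CPM in shNSD2 and 11.7, 11.3 and 12.9 CPM in shCTR, a log2 fold change of 0.42 (edgeR adjusted p = 0.0203). The KRT8P12 call held in 2 of the 6 fits that leave out a library (range 0.34 to 0.49, adjusted p up to 0.0985) and not after correction for GC content and length (0.25, adjusted p = 0.0841). The next, KRT8P33, averaged 2.19 CPM in both groups. Counting can divide reads between a gene and such a copy, so the values of the copies are uncertain.

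CDH1, the gene of E-cadherin, took the most reads of the 10 and fell. It had 871, 766 and 661 CPM in the shNSD2 libraries, against 1263, 1106 and 857 CPM in the shCTR libraries. The groups overlap, because shNSD2 1 lay just above shCTR 4. Means were 766 ± 105 CPM in shNSD2 and 1075 ± 205 CPM in shCTR, giving a log2 fold change of -0.49 (SE 0.157, 95% interval -0.84 to -0.14, edgeR adjusted p = 0.0381), a 1.4-fold lower level. CDH1 lies at chr16:68737225-68835548 on the plus strand and shares 347 exonic bases with the antisense gene AC099314.1, which reached at most 0.587 CPM in any library. EPCAM was nearly level, with 172, 176 and 172 CPM in shNSD2 and 190.3, 168 and 181 CPM in shCTR. Its log2 fold change was -0.06, with a 95% interval of -0.25 to 0.14 (edgeR adjusted p = 0.65). EPCAM lies at chr2:47345158-47387601, plus strand.

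None of the 3 claudins passed the test with all 6 libraries. CLDN3 had 118, 121 and 123 CPM in shNSD2 and 116, 103 and 122 CPM in shCTR, a log2 fold change of 0.08 (95% interval -0.12 to 0.28, edgeR adjusted p = 0.517). CLDN4 had 332, 271 and 248 CPM in shNSD2 and 316, 284 and 248 CPM in shCTR, so that both groups ran over nearly the same range. The CLDN4 log2 fold change was 0.00 (95% interval -0.28 to 0.29, edgeR adjusted p = 0.979). CLDN7 had 252, 264 and 247 CPM in shNSD2, against 202, 185 and 250.3 CPM in shCTR. Here 2 controls lay far below the knockdown libraries and shCTR 4 lay among them, and the log2 fold change of 0.26 (95% interval 0.00 to 0.52) was not called (edgeR adjusted p = 0.11). Without shCTR 4 the CLDN7 value was 0.40 with an edgeR adjusted p of 0.00137. CLDN3 (chr7:73768997-73770270, minus strand) and CLDN4 (chr7:73799542-73832693, plus strand) are neighbours, 29272 bases apart. CLDN7 (chr17:7259903-7263983, minus strand) shares 38 exonic bases with ELP5 on the opposite strand and 269 with the protein-coding gene AC003688.1 on its own strand. AC003688.1 had no row in the count table. ELP5 had 42.3, 42.5 and 43.1 CPM in shNSD2 and 35.7, 37.1 and 38.6 CPM in shCTR (log2 fold change 0.20, edgeR adjusted p = 0.0768).

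OCLN had the largest fold change of the 10 genes. Its libraries held 10.1, 11 and 8.44 CPM in shNSD2, against 18, 15.4 and 11.6 CPM in shCTR. All 3 knockdown values lay below all 3 controls, with shCTR 4 closest to them. Means were 9.84 ± 1.3 CPM in shNSD2 and 15 ± 3.2 CPM in shCTR, giving a log2 fold change of -0.61 (SE 0.165, 95% interval -0.98 to -0.25, edgeR adjusted p = 0.0196), a 1.53-fold lower level. TJP1, whose product binds occludin and claudins from the cytoplasm, had 175, 155 and 126 CPM in shNSD2 and 173, 181 and 151 CPM in shCTR. Its ranges overlap, and the log2 fold change was -0.15 (95% interval -0.42 to 0.13, edgeR adjusted p = 0.388). OCLN lies at chr5:69492292-69558104 on the plus strand, and TJP1 at chr15:29699367-29968865 on the minus strand.

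**Figure D2:**
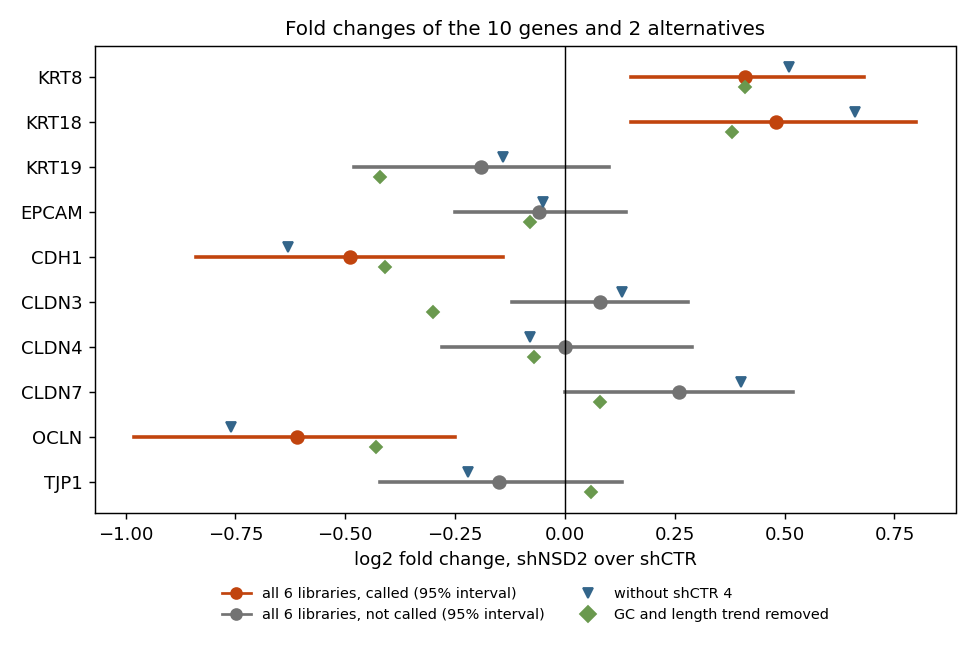
Log2 fold change of shNSD2 over shCTR for each of the 10 genes, with the 95% interval from the edgeR fit of all 6 libraries. Blue triangles give the value without shCTR 4 and green diamonds the value after removal of each library's trend on GC content and length. Without shCTR 4, KRT18 moved to 0.66 and OCLN to -0.76, and with the trend removed CLDN3 stood at -0.30.

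Repressors of the SNAI and ZEB families are known to bind the E-box CAGGTG in promoters of epithelial genes, so promoters were searched for it on both strands, and those of OCLN, which fell, and CLDN7, which did not pass, are shown for comparison. RefSeq promoters (GRCh38.p14, 250 bases before to 50 bases after the start) were matched for 6 of the 10 genes, giving 11 promoters. No promoter was matched for CDH1, KRT18, KRT19 or EPCAM, so the search says nothing about these genes. Printed here are the OCLN pair, from start sites close to each other, and the CLDN7 promoter with the most matches of the 11. Each is written 5′ to 3′ on the strand of the gene, and capitals mark CAGGTG or its reverse complement CACCTG.
OCLN chr5:69492297-69492596 (+): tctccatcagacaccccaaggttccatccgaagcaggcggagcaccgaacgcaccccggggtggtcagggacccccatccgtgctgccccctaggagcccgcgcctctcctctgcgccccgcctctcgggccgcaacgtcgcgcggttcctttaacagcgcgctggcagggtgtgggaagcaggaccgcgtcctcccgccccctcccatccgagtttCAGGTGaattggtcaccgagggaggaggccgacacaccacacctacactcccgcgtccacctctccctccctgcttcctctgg
OCLN chr5:69492540-69492839 (+): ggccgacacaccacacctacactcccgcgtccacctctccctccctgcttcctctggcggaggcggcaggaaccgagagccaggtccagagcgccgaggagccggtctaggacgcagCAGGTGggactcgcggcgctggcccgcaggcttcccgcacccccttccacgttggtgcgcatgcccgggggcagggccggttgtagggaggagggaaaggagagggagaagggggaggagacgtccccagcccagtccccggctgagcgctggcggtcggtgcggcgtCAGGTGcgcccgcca
CLDN7 chr17:7262429-7262728 (-): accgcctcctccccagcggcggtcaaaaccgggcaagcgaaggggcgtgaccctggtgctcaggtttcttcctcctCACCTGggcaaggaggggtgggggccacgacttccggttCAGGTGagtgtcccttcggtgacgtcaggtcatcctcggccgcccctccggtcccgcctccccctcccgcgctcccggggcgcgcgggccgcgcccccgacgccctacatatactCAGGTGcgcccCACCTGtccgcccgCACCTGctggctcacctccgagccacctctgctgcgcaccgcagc

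The first OCLN promoter held 1 match, starting at position -33 from the start site, and the second held 2, at -133 and 36. The CLDN7 promoter held 5, at -174, -135, -20, -9 and 6, while a second CLDN7 promoter at chr17:7263164-7263463 held none. CLDN3 had 1 match in its promoter, 1 of 4 TJP1 promoters had 1, and those of KRT8 and CLDN4 had none. In all, 5 of the 11 promoters held a match, where 20.6% of the 35116 promoters in the table did so, and 5 or more matches occurred in 33 promoters, 0.094%. The 11 come from 6 genes, and the 2 OCLN promoters overlap, so they are not independent. Those 5 had 68% to 72% GC and the others 35.7% to 71.3%, against a median of 58.7% over the table. The part of base composition in the count was not tested. A match is only a run of letters, and binding was not measured. Of the repressors themselves, SNAI2 had 5.3, 5.7 and 5.53 CPM in shNSD2, against 8.41, 6.94 and 6.72 CPM in shCTR. SNAI2 thus fell (log2 fold change -0.42, edgeR adjusted p = 0.044), though with each library left out in turn the call held only without shCTR 4, where the value was -0.48, and not after the GC and length correction (-0.36, adjusted p = 0.0701). SNAI1 (log2 fold change 0.26, edgeR adjusted p = 0.216) and SNAI3 (0.92, adjusted p = 0.0538) did not pass. SNAI3 was called higher without shCTR 4 (1.04, edgeR adjusted p = 0.0358). ZEB1, TWIST1 and TWIST2 had at most 3 counts in any library and were not tested.

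Compared per kilobase of the longest coding transcript, the 10 genes span a wide range of levels, and the leading gene differed between groups. In shNSD2, KRT18 at 207 ± 20.1 and KRT8 at 204 ± 18 CPM per kilobase came first and did not differ beyond their spread, and CDH1 followed at 157 ± 21.6. In shCTR, CDH1 led at 220.0 ± 41.9 CPM per kilobase, above KRT8 at 153 ± 19.1 and KRT18 at 149 ± 32.4, which again did not differ beyond their spread. The other 7 kept the same order in both groups. CLDN7 stood at 132 ± 4.71 CPM per kilobase in shNSD2 and 110.4 ± 17.6 in shCTR. EPCAM stood at 101 ± 1.46 in shNSD2 and 104 ± 6.38 in shCTR, and CLDN3 at 94.6 ± 1.93 in shNSD2 and 89.5 ± 7.67 in shCTR. CLDN7 and EPCAM did not differ beyond their spread in shCTR. CLDN4 came next with 68.1 ± 10.5 CPM per kilobase in shNSD2 and 67.9 ± 8.13 in shCTR. Far below these were TJP1 (19.1 ± 3.06 in shNSD2, 21.2 ± 1.96 in shCTR), KRT19 (12.1 ± 2.16 in shNSD2, 13.8 ± 0.906 in shCTR) and OCLN (1.53 ± 0.201 in shNSD2, 2.33 ± 0.498 in shCTR). The order depends on the length used, since with all annotated exons merged CDH1 led in both groups and KRT8 ranked 5 in shNSD2 and 7 in shCTR. Ranked by control CPM among all genes tested, 8 of the 10 lay between the 87.7 percentile of CLDN3 and the 99.6 percentile of CDH1, while KRT19 was at 52.4 and OCLN at 48.5.

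Summed over their members, the 3 keratins gave 781, 872 and 940.4 CPM in shNSD2, against 552, 627 and 754 CPM in shCTR, with no overlap and a ratio of means of 1.34. The 3 claudins gave 703, 656 and 617 CPM in shNSD2 and 634, 573 and 621 CPM in shCTR, a ratio of 1.08. All 10 genes together came to 2624 ± 94.1 CPM in shNSD2 and 2692 ± 128 CPM in shCTR, a difference within their spread. CDH1 made up 29.2% of that sum in shNSD2 and 39.9% in shCTR.

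Ratios within a library are free of the scaling between libraries, and 7 of them were tested by exact permutation of the libraries (two-sided), for which 3 libraries against 3 cannot give a p below 0.1. The log2 ratio of KRT8 to KRT18 was 0.50 ± 0.0437 in shNSD2 and 0.58 ± 0.131 in shCTR, a difference of -0.08 that lies within the control spread (exact permutation p = 0.4, adjusted over the 7 ratios 0.56). KRT19 over KRT18 was -4.40 ± 0.133 in shNSD2 and -3.70 ± 0.214 in shCTR, a difference of -0.70 without overlap (exact permutation p = 0.1, adjusted 0.35). OCLN over TJP1 was -3.95 ± 0.15 in shNSD2 and -3.51 ± 0.219 in shCTR, a difference of -0.44, also without overlap (exact permutation p = 0.1, adjusted 0.35). These 2 ratios differ by more than the spread between libraries, and neither can pass a threshold of 0.05 at this number of libraries. Differences for the other pairs were 0.43 for EPCAM over CDH1 (exact permutation p = 0.2, adjusted 0.467), 0.27 for CLDN7 over CLDN4 (p = 0.4, adjusted 0.56) and 0.08 for CLDN3 over CLDN4 (p = 0.9, adjusted 0.9). CDH1 over VIM, the gene of vimentin, the main intermediate filament of mesenchymal cells, was 6.84 ± 0.394 in shNSD2 and 7.09 ± 0.659 in shCTR (exact permutation p = 0.7, adjusted 0.817). VIM itself was low, with 5.81, 6.68 and 7.61 CPM in shNSD2 and 5.92, 7.95 and 10 CPM in shCTR, and was not called (log2 fold change -0.24, edgeR adjusted p = 0.347).

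**Figure D3:**
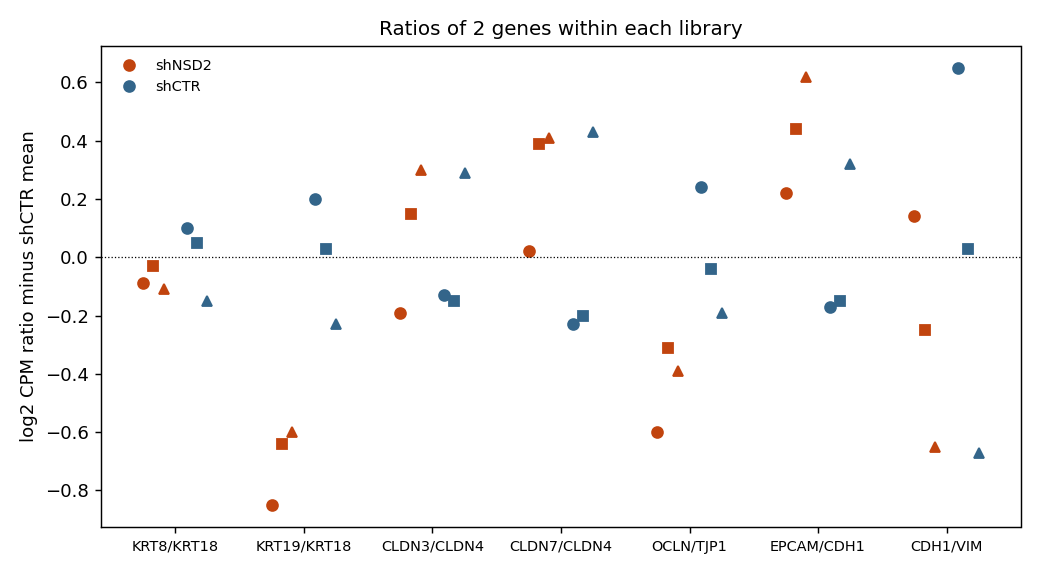
Log2 ratio of the CPM of 2 genes in each library, after subtraction of the shCTR mean of that ratio, for 7 pairs. Knockdown libraries (orange) are drawn left of the controls (blue), with circles for library 1, squares for library 2 and triangles for shNSD2 3 or shCTR 4. The groups do not overlap for KRT19 over KRT18 and OCLN over TJP1, whose differences are -0.70 and -0.44.

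How firmly each call stands depends on single libraries. The control shCTR 4 lay closer to the knockdown libraries than the other controls did. Along the direction between the other controls (0) and the knockdown mean (1), over 11218 genes of at least 5 CPM, it stood at 0.49, against -0.44 for shCTR 1 and 0 for shCTR 2. For the members, shCTR 4 lay 54.2% of the way to the knockdown mean for KRT8, 75.2% for KRT18, 73% for CDH1, 67.6% for OCLN and 94% for CLDN7. For the members with smaller differences it lay 99.3% of the way for TJP1, past the knockdown mean for CLDN3 (117%) and CLDN4 (303%), and on the far side from it for KRT19 (-101%) and EPCAM (-39%). Without it, KRT8 (0.51), KRT18 (0.66) and CLDN7 (0.40) were called higher and CDH1 (-0.63) and OCLN (-0.76) lower, while that fit called 23.9% of all genes tested higher and 22.6% lower. With each of the other 5 libraries left out in turn, the directions of these genes held and most calls did not. KRT8 remained called only without shNSD2 1 (log2 fold change 0.48, edgeR adjusted p = 0.0415), OCLN only without shNSD2 2 (-0.69, adjusted p = 0.036), and KRT18 and CDH1 in none of these 5. Over these 5 fits the edgeR adjusted p reached 0.115 for KRT8, 0.134 for KRT18, 0.155 for CDH1 and 0.0862 for OCLN. The log2 fold change over all 6 such fits lay between 0.32 and 0.51 for KRT8, 0.34 and 0.66 for KRT18, -0.63 and -0.37 for CDH1, and -0.76 and -0.47 for OCLN.

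Base composition moved with the fold changes. Genes whose longest transcript has under 45% GC had a median log2 fold change of -0.09, those of 45% to 55% GC 0.01, and those over 55% GC 0.13. A smaller trend of the same order lay within the controls. The median difference of shCTR 4 from shCTR 1 and 2 was -0.04, 0.02 and 0.04 over these classes. The members that fell, OCLN (39.86% GC) and CDH1 (48.56%), have less GC than the members that rose, KRT18 (55.7%) and KRT8 (56.18%), while TJP1 had 44.79% and EPCAM 47.04%. CLDN4 had 57.48%, CLDN7 59.59%, KRT19 61.8% and CLDN3 69.15%. With each library's smooth trend on GC content and length removed, KRT8 (log2 fold change 0.41, edgeR adjusted p = 0.0302), KRT18 (0.38, adjusted p = 0.0469) and OCLN (-0.43, adjusted p = 0.0433) were still called. CDH1 missed the threshold (-0.41, adjusted p = 0.0508). That fit also called KRT19 lower at -0.42 (edgeR adjusted p = 0.022) and CLDN3 lower at -0.30 (adjusted p = 0.0235), the sign of CLDN3 being opposite to that without the correction.

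Few other keratins were tested. Of 32 entries (keratins plus KRTCAP2 and KRTCAP3, which are not keratins) 13 had a row and 9 were tested, and 2 were called higher and 0 lower, with a median log2 fold change of 0.04. The shares over all genes tested were 15.5% higher and 15.2% lower. At an unadjusted p under 0.05 the count was 2 higher and 1 lower, while DESeq2 called 1 higher and 0 lower and limma-voom 2 higher and 0 lower. Requiring 1 CPM or more in 3 libraries left 1 higher, the GC and length correction gave 2 higher and 1 lower, and without shNSD2 3 both counts were 0. KRT10, a type I chain best known from the upper epidermis, averaged 44.7 ± 1.8 CPM in shNSD2 and 29.8 ± 7.45 CPM in shCTR (log2 fold change 0.59, edgeR adjusted p = 0.015). Its call was lost without shCTR 2 or shNSD2 3, with log2 values of 0.44 to 0.80 over the fits that leave out a library. KRT6C averaged 0.787 ± 0.159 CPM in shNSD2 and 0.249 ± 0.177 CPM in shCTR (1.64, adjusted p = 0.0263, lost without shCTR 1, shNSD2 2 or shNSD2 3, range 1.14 to 2.11). Among 14 genes whose products link or bind keratin filaments, all tested, 2 were higher and 3 lower, with a median of -0.24. These counts stand beside the same shares of 15.5% and 15.2% over all genes tested. The 3 lower were EPPK1, DSP and PKP1, and DSP and PKP1 are counted again among the desmosome genes below. EPPK1 (-0.44, edgeR adjusted p = 0.0437) was called only without shCTR 4 among the fits that leave out a library. Without shCTR 4 the lower count was 7 (22.6% of all genes tested were lower in that fit). Without shNSD2 2 it was 1, with the GC and length trend removed it was 6, and DESeq2 called 5. TRADD, a death receptor adaptor known to bind keratin 18, rose to 24.1 ± 1.03 CPM in shNSD2, against 14.9 ± 2.32 CPM in shCTR (0.70, edgeR adjusted p = 0.00328), and LMNA, the nuclear lamin gene, averaged 150.4 ± 8.44 CPM in shNSD2 and 124 ± 8.95 CPM in shCTR (0.28, adjusted p = 0.0406), a call that held only without shCTR 4 among the fits that leave out a library (range 0.23 to 0.34) and was lost with the trend removed (0.20, adjusted p = 0.11). Plectin (PLEC), the linker with the most reads, had 656 ± 35.6 CPM in shNSD2 and 841 ± 145 CPM in shCTR and missed the threshold (-0.36, adjusted p = 0.0637). PLEC was called lower without shCTR 4 (-0.47, edgeR adjusted p = 0.00152) and with the trend removed (-0.36, adjusted p = 0.0253).

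Desmosomes anchor keratin filaments at the membrane, and 5 of their 12 tested genes (14 listed) fell and 0 rose, with a median log2 fold change of -0.44. Over all genes tested 15.2% fell and 15.5% rose. DESeq2 called 4 lower, limma-voom 3 and 7 had an unadjusted p under 0.05 in the edgeR fit, each with 0 higher. Desmoplakin (DSP), which ties keratins to the plaque, fell to 270.1 ± 23.4 CPM in shNSD2, against 443 ± 100.3 CPM in shCTR (-0.72, edgeR adjusted p = 0.00865), and kept its call without each library in turn. The desmosomal cadherin DSC3 averaged 0.674 ± 0.207 CPM in shNSD2 and 2.23 ± 0.941 CPM in shCTR (-1.73, adjusted p = 0.00732), also kept in all 6. The plaque protein PKP1 was at 1.1 ± 0.156 CPM in shNSD2 and 2.07 ± 0.0593 CPM in shCTR (-0.90, adjusted p = 0.0122, lost without shNSD2 2). The cadherins DSG2, with 431 ± 57.8 CPM in shNSD2 and 706 ± 279.7 CPM in shCTR (-0.71, adjusted p = 0.0499), and DSG1 (-0.90, adjusted p = 0.0475) were called in only 1 of the 6 fits that leave out a library, the one without shCTR 4, and not with the trend removed (adjusted p = 0.0817 and 0.0726). Their log2 values over those fits ran from -0.98 to -0.43 for DSG2 and -1.06 to -0.61 for DSG1. The level of DSG1 was low, 0.937 ± 0.244 CPM in shNSD2 and 1.75 ± 0.574 CPM in shCTR. PKP3, with 226 ± 1.14 CPM in shNSD2 and 206 ± 8.01 CPM in shCTR, was not called (0.14, edgeR adjusted p = 0.239). Plakoglobin (JUP), shared with adherens junctions, had 533 ± 7.94 CPM in shNSD2 and 465 ± 57.6 CPM in shCTR and was not called (0.20, adjusted p = 0.19), except without shCTR 4, where it was higher (0.30, adjusted p = 0.0106). Without a library the lower count of desmosome genes was 6 beside 1 higher (shCTR 4), 2 (shNSD2 2) or 3 (each of the other 4), and it was 3 with the GC and length trend removed or with upper-quartile scaling. The fit without shCTR 4 called 22.6% of all genes tested lower and 23.9% higher.

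Of 19 tested adherens junction genes (29 entries, some of them older symbols of the same gene), 1 rose and 6 fell, with a median of -0.16. Among all genes tested 15.5% were higher and 15.2% lower. NECTIN3, a nectin that acts beside cadherins, fell to 1.91 ± 0.247 CPM in shNSD2, against 6.76 ± 1.79 CPM in shCTR (log2 fold change -1.82, edgeR adjusted p = 0.000986). PTPN14, a junctional tyrosine phosphatase, fell to 11.8 ± 1.45 CPM in shNSD2, against 24.4 ± 5.02 CPM in shCTR (-1.05, adjusted p = 0.00191). EPB41L5, known to promote the loss of cadherin contacts in mouse embryos, was the gene that rose, at 60.7 ± 8.17 CPM in shNSD2 and 40.5 ± 3.57 CPM in shCTR (0.58, adjusted p = 0.0049). These 3 kept their calls without each library in turn, and p120-catenin (CTNND1), which binds E-cadherin, was not called (0.14, adjusted p = 0.284). CTNND1 was called higher with the GC and length trend removed (0.29, edgeR adjusted p = 0.0343). Without shCTR 4 the list gave 4 higher and 9 lower, where 23.9% of all genes tested were higher and 22.6% lower. It gave 1 higher and 3 lower without shNSD2 3, and 4 higher and 4 lower with the trend removed.

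Besides CLDN3, CLDN4, CLDN7 and OCLN, 17 claudins and other membrane proteins of the tight junction were tested of 27 listed, and 6 fell and 0 rose, with a median log2 fold change of -0.41. For comparison, 15.2% of all genes tested fell and 15.5% rose. The count of 0 higher also held for DESeq2, limma-voom and an unadjusted p under 0.05 in edgeR, and the lower count was 4 to 7 with each library left out and 6 with the trend removed. It was 7 without shCTR 4, where 22.6% of all genes tested were lower. MARVELD2, or tricellulin, a relative of occludin at contacts of 3 cells, fell to 8.38 ± 0.954 CPM in shNSD2, against 15.5 ± 3.38 CPM in shCTR (-0.89, edgeR adjusted p = 0.00419). MARVELD2 is also the nearest protein-coding gene on 1 side of OCLN, 47962 bases away. ILDR1, likewise a protein of tricellular contacts, fell to 5.92 ± 1.35 CPM in shNSD2, against 10.9 ± 1.51 CPM in shCTR (-0.88, adjusted p = 0.0061). The adhesion molecule JAM3 fell to 7.43 ± 0.89 CPM in shNSD2, against 12.3 ± 2.49 CPM in shCTR (-0.73, adjusted p = 0.0088). These 3 kept their calls without each library in turn. Also called lower were CLDN15 (-0.48), kept in all 6 such fits, CLDN23 (-0.44), lost without shNSD2 1 or shNSD2 3 (range -0.51 to -0.34), and CXADR (-0.41). CXADR was called only without shCTR 4 (range -0.55 to -0.28) and not with the trend removed (-0.23, adjusted p = 0.122). LSR (-0.08, adjusted p = 0.533) and CLDN12 (-0.09, adjusted p = 0.631), the 2 with the most reads in the list, did not pass. With the trend removed LSR was called lower (-0.34, edgeR adjusted p = 0.0252).

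On the cytoplasmic side, 27 plaque and polarity genes were tested of 29 listed, and 3 rose and 5 fell, with a median of 0.01. These counts are near the shares over all genes tested, 15.5% higher and 15.2% lower. ARHGEF2, or GEF-H1, a guanine nucleotide exchange factor held at tight junctions by cingulin, rose to 84.5 ± 11.6 CPM in shNSD2, against 37.8 ± 6.75 CPM in shCTR (log2 fold change 1.16, edgeR adjusted p = 0.000723). Angiomotin (AMOT) fell to 6.46 ± 0.576 CPM in shNSD2, against 13.8 ± 3.69 CPM in shCTR (-1.09, adjusted p = 0.00341). Its relative AMOTL1 fell to 0.613 ± 0.384 CPM in shNSD2, against 3.27 ± 1.1 CPM in shCTR (-2.40, adjusted p = 0.00281). The other 2 that rose were TJP3, or ZO-3 (0.45, adjusted p = 0.0223), and CGNL1, or paracingulin (0.62, adjusted p = 0.00824). The other 3 that fell were MPDZ (-0.65, adjusted p = 0.00777), MPP5 (-0.51, adjusted p = 0.00851) and MAGI3 (-0.46, adjusted p = 0.0137). Calls were kept without each library in turn except for TJP3, lost without shCTR 1 or shNSD2 1 (range 0.33 to 0.56), and MAGI3, lost without shNSD2 3 (range -0.52 to -0.38), and both missed the threshold with the trend removed (TJP3 0.27, adjusted p = 0.0963, MAGI3 -0.29, adjusted p = 0.0507). Without shCTR 4 the counts were 6 higher and 8 lower, where 23.9% of all genes tested were higher and 22.6% lower. With the trend removed they were 6 higher and 4 lower. Upper-quartile and plain library size scaling each called 5 higher.

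EPCAM itself did not pass, and 5 of 14 tested genes for its partners and the proteases that cleave it fell and 1 rose, with a median of -0.12. Shares over all genes tested were 15.2% lower and 15.5% higher. The tetraspanin CD9 fell to 492 ± 13.1 CPM in shNSD2, against 671 ± 61.1 CPM in shCTR (log2 fold change -0.45, edgeR adjusted p = 0.0114, lost without shNSD2 1 or 3, range -0.49 to -0.38). ADAM10, a protease that sheds cadherins as well, was at 194 ± 20.3 CPM in shNSD2 and 297 ± 70.5 CPM in shCTR (-0.61, adjusted p = 0.0173, lost without shCTR 2, shNSD2 2 or shNSD2 3, range -0.79 to -0.46), and it was not called with the trend removed (-0.27, adjusted p = 0.0882). ADAM17 (-0.55), the gamma-secretase subunit NCSTN (-0.36) and, higher, its subunit PSENEN (0.67) were called in only the fit without shCTR 4 among the 6 that leave out a library, and ADAM17 not with the trend removed (-0.28, adjusted p = 0.116). The lower count of the list was 1 to 5 over those fits, smallest without shNSD2 3, and 3 with the trend removed.

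Of 19 tested factors known to drive luminal and epithelial genes, 2 were higher and 2 lower, with a median of 0.07. Both counts lie below the shares over all genes tested, 15.5% higher and 15.2% lower, and say nothing particular about these factors. SPDEF, an ETS factor of secretory epithelia, rose to 378 ± 6.02 CPM in shNSD2, against 248 ± 30.2 CPM in shCTR (log2 fold change 0.61, edgeR adjusted p = 0.00367). GATA2, a zinc finger factor active in prostate cells, fell to 288 ± 23.7 CPM in shNSD2, against 437 ± 16.6 CPM in shCTR (-0.60, adjusted p = 0.00287). CDX2, an intestinal factor, fell to 0.435 ± 0.211 CPM in shNSD2, against 1.54 ± 0.279 CPM in shCTR (-1.81, adjusted p = 0.00506). These 3 kept their calls without each library in turn, whereas ELF3 (0.34, adjusted p = 0.0434) was called only without shCTR 4 (range 0.26 to 0.38). FOXA1, the pioneer factor of luminal cells, was not called (0.15, adjusted p = 0.268), nor was EHF (-0.40, adjusted p = 0.096). EHF was called lower without shCTR 4 (-0.55, edgeR adjusted p = 0.00138). Among 12 tested repressors of epithelial genes 0 rose and 2 fell, SNAI2 and TCF4, with a median of 0.10. At an unadjusted p under 0.05 the repressor count was 2 higher and 2 lower, while DESeq2 called 0 higher and 1 lower and limma-voom 0 higher and 2 lower. TCF4, or E2-2, a basic helix-loop-helix factor that represses CDH1, fell to 10.4 ± 0.681 CPM in shNSD2, against 22.9 ± 3.45 CPM in shCTR (-1.13, edgeR adjusted p = 0.000604), without loss in any of the 6 fits. Without shCTR 4 the factors counted 5 higher and 4 lower and the repressors 4 higher and 2 lower, and with the trend removed the factors counted 4 higher and 2 lower and the repressors 1 and 1. The fit without shCTR 4 called 23.9% of all genes tested higher and 22.6% lower.

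**Figure D4:**
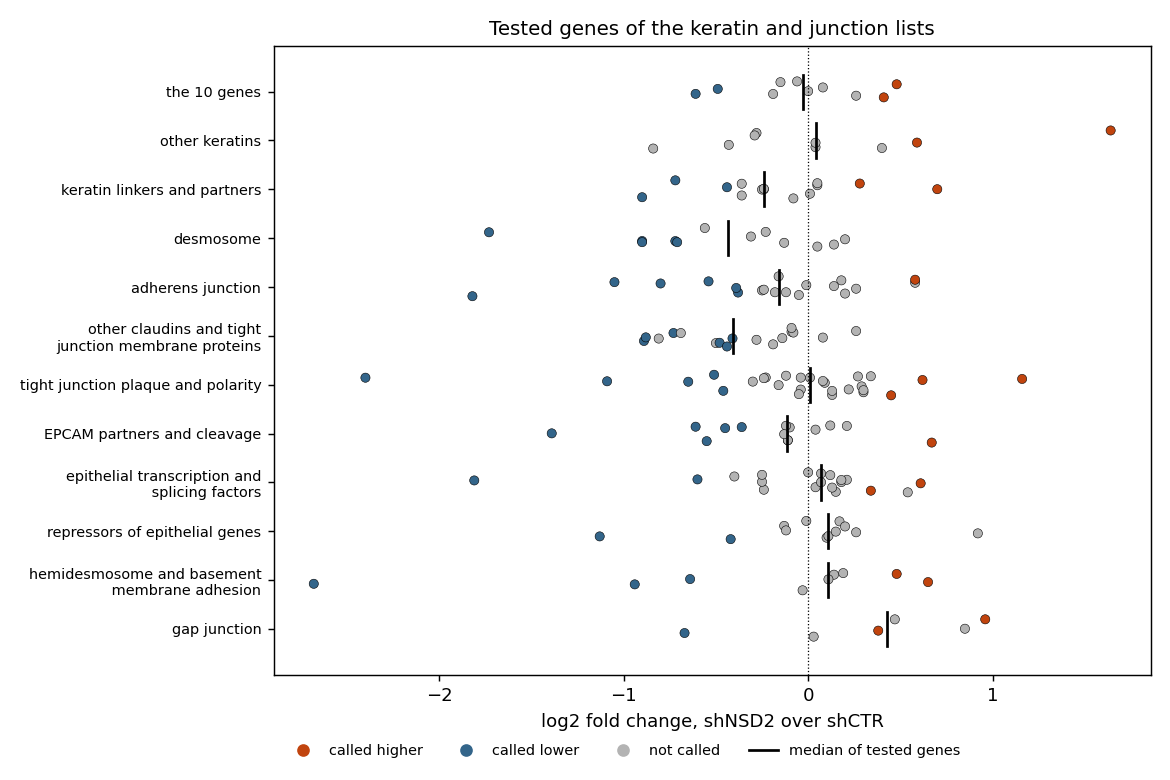
Log2 fold change (shNSD2 over shCTR) of the tested genes of each list, 1 point a gene, orange for called higher, blue for called lower and grey for not called, with a black line at the median of each list. Desmosome genes and tight junction membrane proteins have medians of -0.44 and -0.41, with 5 and 6 genes lower, while plaque genes lie on both sides of 0. For comparison, 15.5% and 15.2% of all genes tested were called higher and lower.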

How the data were processed

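Polyadenylated RNA of 3 shNSD2 and 3 shCTR libraries of C42 cells was sequenced (KAPA mRNA kit, per the labels' protocols). The deposited table holds raw read counts per gene, with no normalization, as its whole numbers and unequal library totals show. STAR 2.6.0a, CASAVA 1.8.2 and GRCh38 are named in the submitters' processing notes. Which program, annotation and strand setting made the counts is not given in the sources used.

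Titles gave the groups. The test was that of edgeR 4.0.16, run in R 4.3.3 (filterByExpr, TMM, glmQLFit and glmQLFTest, no covariate). The filter left 17160 of 31413 genes, p-values were adjusted by Benjamini-Hochberg over all of them, and the threshold for a call was 0.05. The common biological coefficient of variation was 0.106. Positions, lengths and GC content are from GENCODE 29 on GRCh38, in which 31313 identifiers were found. Ratios of 2 genes used no pseudocount.

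The members and the lists of other genes were chosen with earlier results of these data known. Named genes are the members, NSD2, the 3 called genes of smallest p and the 2 of highest CPM in each list, the SNAI, ZEB and TWIST genes, the 2 most abundant keratin pseudogenes and called neighbours; other called list genes and KRT19P1 were added after their values were seen. Some genes that the rule takes are not reported here. Alternatives were DESeq2 1.42.0 and its size factors, limma-voom 3.58.1, upper-quartile and plain library size scaling, robust dispersion, other low-count filters, a pseudocount of 1 CPM in ratios, the replicate number as a block, a GC and length correction, and leaving out each library. The fit was tested on simulated data.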

Additional observations from a re-analysis of the deposited data

How the results depend on the processing

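With each library left out in turn, the edgeR counts over the 10 genes ran from 0 to 3 higher and from 0 to 2 lower. Without shCTR 1, shCTR 2 or shNSD2 3 both were 0, although 2 genes higher and 2 lower had an unadjusted p under 0.05 in each of those fits. Such fits have fewer libraries, and over all genes they called between 1116 higher with 1320 lower (without shNSD2 3) and 4251 higher with 4011 lower (without shCTR 4). Over the 10 alternatives that keep all 6 libraries, 96 of 100 member values kept their side of the threshold. The exceptions were CLDN7 under the replicate block and KRT19 (-0.42), CDH1 (-0.41) and CLDN3 (-0.30) under the GC and length correction, which gave 2 genes higher and 3 lower; the cause was not tested. The sign turned in 5 values, those of CLDN3 and TJP1 (0.06, not called) under that correction and 3 of CLDN4, whose value is 0.00 with a lowest of -0.07. The labels share only the numbers 1 and 2 between groups, and the deviations of same-numbered libraries correlated at 0.0397 and -0.174 over 11218 genes, so the numbers were not taken as pairs. With the replicate block the counts were 3 higher and 2 lower, with CLDN7 added at 0.42 (edgeR adjusted p = 0.00609), against 3242 higher and 3001 lower over all genes. Of 340 counts over the gene lists, 298 stayed within 1.5 times under these alternatives, 20 were larger and 22 smaller. With a library left out, the CLDN3 over CLDN4 difference ran from -0.02 (without shNSD2 3) to 0.23, the CDH1 over VIM difference from -0.59 to 0.07 (without shCTR 1), CLDN7 over CLDN4 from 0.16 (without shCTR 1) to 0.49 (without shCTR 4) and KRT8 over KRT18 from -0.15 (without shCTR 4) to -0.03 (without shCTR 1). At this depth ZEB1, TWIST1 and TWIST2, with at most 3 counts in a library, were not tested.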

Other observations

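Genes for adhesion to the basement membrane and for gap junctions were also listed. Over all genes tested 15.5% were called higher and 15.2% lower, and counts from lists this short say little about either family. Of 9 tested hemidesmosome and basement membrane adhesion genes 2 rose and 3 fell. Integrin beta 1 (ITGB1), the shared chain of many matrix receptors, fell to 249 ± 32.6 CPM in shNSD2, against 475 ± 136 CPM in shCTR (log2 fold change -0.94, edgeR adjusted p = 0.00623), and kept its call without each library in turn. Dystonin (DST), an anchor of keratin filaments in hemidesmosomes, was at 16.2 ± 1.81 CPM in shNSD2 and 25.2 ± 5.28 CPM in shCTR (-0.64, adjusted p = 0.0116), and with the GC and length trend removed it was at -0.13 and not called (adjusted p = 0.341). The integrin chains ITGA3 (0.48, adjusted p = 0.0407) and ITGB4 (0.65, adjusted p = 0.0426) were higher, and their calls were lost in 3 and 5 of the 6 fits that leave out a library, that of ITGB4 also with the trend removed (0.54, adjusted p = 0.0563). Of 6 tested gap junction genes 2 rose and 1 fell. The channel gene PANX1 fell to 22.6 ± 2.82 CPM in shNSD2, against 35.9 ± 7.77 CPM in shCTR (-0.67, edgeR adjusted p = 0.00957). GJB2 (0.96, adjusted p = 0.0241) and PANX2 (0.38, adjusted p = 0.0463) rose, each called in only 2 of those 6 fits, PANX2 was at 0.11 with the trend removed (adjusted p = 0.538), and DESeq2 called 0 gap junction genes higher.

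The pseudogene KRT19P1 had 1.38, 1.08 and 0.97 CPM in shNSD2, against 0.293, 0.193 and 0.261 CPM in shCTR, with at most 27 counts in a library. Its log2 fold change was 2.17 (SE 0.335, edgeR adjusted p = 0.00213), while KRT19 was not called, and its share of the KRT19 count was 4.95% to 10.1% in shNSD2 and 1.03% to 1.62% in shCTR. It was called in all 6 fits that leave out a library, at 2.01 to 2.30. Among the nearest protein-coding genes beside the members, METTL27, 1897 bases from CLDN4, was higher (0.63, edgeR adjusted p = 0.00248) and was called in all 6 of those fits. ABHD11 beside CLDN3 (0.32, adjusted p = 0.0447) and SLC2A4 beside CLDN7 (0.46, adjusted p = 0.0267) were called in 1 and 3 of the 6, and neither with the GC and length trend removed (adjusted p = 0.242 and 0.055).

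Markers of other cell types were few and low. The sum of 4 neuroendocrine markers with a row was 16 to 16.5 CPM in shNSD2 and 8.17 to 12.7 CPM in shCTR, with SYP higher (0.64, edgeR adjusted p = 0.0133) of 2 tested. The SYP call was lost without shNSD2 2. The other tested, ENO2, averaged 8.95 CPM in shNSD2 and 5.93 CPM in shCTR and was not called (0.59, adjusted p = 0.0743). The sum of 3 endothelial markers was 7.29 to 8.06 CPM in shNSD2 and 5.58 to 5.82 CPM in shCTR, nearly all of it VWF. VWF was called higher (0.43, edgeR adjusted p = 0.0273), but only without shCTR 4 among the 6 fits that leave out a library. The part of these markers in the keratin and junction results was not tested.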
